A study of Danio rerio with 8 samples.

Results

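Genes of myelin and of the oligodendrocyte lineage were examined in retinas of *bbs2* mutant zebrafish and their wild-type siblings. The set held 9 genes, taken by their symbol from the 32520 genes of the deposited count table, and each symbol matched exactly 1 gene. They were *mbpa* (ENSDARG00000036186), *mbpb* (ENSDARG00000089413), *plp1a* (ENSDARG00000103732), *plp1b* (ENSDARG00000011929), *mpz* (ENSDARG00000038609), *mag* (ENSDARG00000104023), *olig1* (ENSDARG00000040948), *olig2* (ENSDARG00000040946) and *sox10* (ENSDARG00000077467). There were 4 libraries from *bbs2* -/- homozygotes and 4 from *bbs2* +/+ siblings, raised from crosses of heterozygotes, of both sexes and 6 months old. All fish were kept in the dark for 16 to 20 h and killed in the dark, and each library held the RNA of pooled retinas dissected with little of the pigment epithelium. The mutation is carried by every cell of the animal, so nothing in the design limits it to photoreceptors or to glia. The comparison asks which transcripts differ in a retina whose photoreceptors are degenerating.

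Myelin is the sheath of tightly stacked membrane that oligodendrocytes of the central nervous system and Schwann cells of peripheral nerves wrap around axons. Transcription factors of the Olig and SoxE families specify oligodendrocyte precursors, and precursors that mature switch on the genes of the sheath, among them those of myelin basic protein and proteolipid protein. In most mammals the axons of retinal ganglion cells carry no myelin inside the retina and are wrapped in the optic nerve. In zebrafish, *mpz* is expressed by oligodendrocytes of the central nervous system, whereas its mammalian counterpart belongs to Schwann cells.

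The 4 wild-type libraries held 6279179 to 8442827 counts over all genes, and the 4 mutant libraries 7289910 to 11496801. The mutated gene itself stood at 39.8 to 45.5 CPM (counts per 1000000 after scaling by trimmed means, TMM) in wild-type and 27.3 to 28.8 CPM in mutant libraries. The libraries held the rod photoreceptor transcript *rho* at 13462 to 25068 TPM (transcripts per 1000000, which allow for gene length). Genes were compared with edgeR's quasi-likelihood test over 17144 genes with enough counts, and a gene was called at an adjusted p under 0.05. Of the tested genes 15.2% were called higher and 13% lower in mutants. A positive log2 fold change (log2FC) means a higher level in mutants, and SE is its standard error.

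Both changes that passed the test among the 9 genes were rises of lineage transcription factors. *sox10* and *olig2* rose in mutants, to 1.51 and 2.24 times their wild-type mean in CPM. The 6 sheath genes *mbpa*, *mbpb*, *plp1a*, *plp1b*, *mpz* and *mag* all had lower means in mutants, at 0.689 to 0.888 of wild-type, and none of them was called by edgeR. Of these, *mbpa*, *plp1b* and *mag* lay close to the threshold, with edgeR adjusted p from 0.061 to 0.065. *olig1* had no count in any library. Of the 8 genes that passed the count filter, 2 were called higher and 0 lower, against the 15.2% and 13% of all tested genes. With 7 counts in wild-type 3, *olig2* would not have passed the filter on wild-type libraries alone. The number called higher therefore rests in part on the filter. The median log2FC of these 8 genes was -0.26, against -0.01 over all tested genes. The libraries of the genotypes did not overlap in CPM for 2 of them (*sox10* and *mag*), where 29.3% of tested genes were separated in either direction. Calls in either direction came to 25% of these genes against 28.1% of all tested genes, a share near the background.

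In wild-type retinas *mbpa* was by far the most abundant of the 9 genes per length. Its mean was 102.7 TPM, with an SD of 11.6 over 4 libraries, and 94.9% of tested genes had a lower mean. *mag* (29.9 ± 3.81 TPM, SD, n = 4) and *plp1b* (28.7 ± 4.44 TPM) came next and overlapped each other, and both lay above *mbpb* (12.3 ± 3.3 TPM) in every library. *sox10* (8.22 ± 1.2 TPM) and *mpz* (7.99 ± 1.85 TPM) overlapped, as did *olig2* (2.08 ± 1.04 TPM) and *plp1a* (1.81 ± 0.423 TPM), and both of the latter lay below both of the former in every library. *mpz* in wild-type 1 (9.69 TPM) stood just above the lowest *mbpb* (9.66 TPM in wild-type 2). In mutants the order was the same except that *sox10*, at 12.8 ± 2.05 TPM, stood above *mbpb*, at 11.1 ± 3.09 TPM, with ranges that overlapped. The ranges of *mbpb* and *mpz* overlapped in mutants too, and those of *mpz* and *olig2* did so there but not in wild-type.

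**Figure D1:**
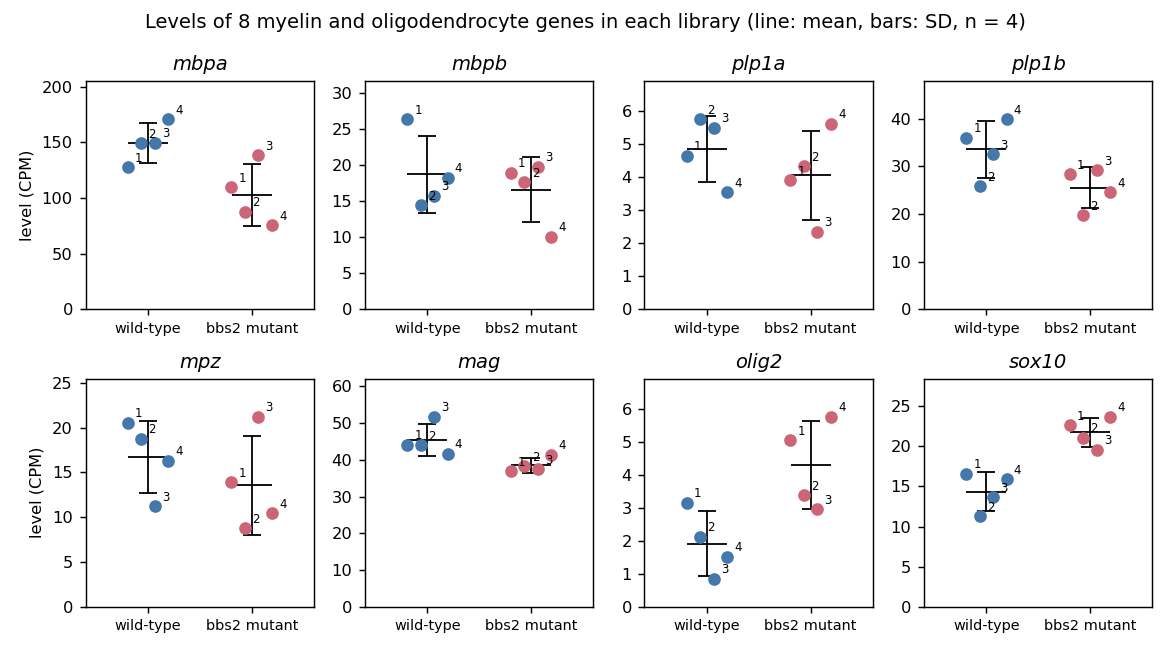
Level of 8 of the 9 genes in each library, in CPM on axes that start at 0 (*olig1*, with no count, is left out). Blue points are the 4 wild-type and red points the 4 mutant libraries, numbered by replicate, with the mean as a line and the SD as bars; *sox10* is higher in every mutant library than in every wild-type library, and *mag* is lower in every mutant library.

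*mbpa* and *mbpb* are duplicate genes for myelin basic protein, which holds the inner faces of the sheath membrane together. *mbpa* was at 128, 149, 149.6 and 171 CPM in wild-type libraries 1 to 4 and at 109.9, 87.7, 139 and 75.3 CPM in mutant libraries 1 to 4. Mutants 1, 2 and 4 lay below every wild-type library, while mutant 3 lay above wild-type 1. The log2FC was -0.53 (SE 0.19, 95% interval -0.96 to -0.11), with an edgeR adjusted p of 0.065. This gene stands at the edge of the call: without mutant 3 the log2FC was -0.70 (edgeR adjusted p = 0.00184), and DESeq2 (adjusted p = 0.00601), limma-voom (adjusted p = 0.0161) and limma on log2(TPM + 0.1) (adjusted p = 0.0285) called it lower on all 8 libraries. Mutants 3 and 4, the highest and the lowest of their group for *mbpa*, also had the largest and the smallest totals of counts among mutants. With all libraries thinned to the total of the smallest the log2FC was -0.54 (edgeR adjusted p = 0.0678). In all, *mbpa* was called lower in 5 of 18 alternatives. It was further from the call without a filter on low counts (edgeR adjusted p = 0.147), with a replicate block (edgeR adjusted p = 0.119) and with library totals in place of TMM (edgeR adjusted p = 0.114). Fewer cells of a type and less RNA in each cell cannot be told apart in whole retinas.

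*mbpb* was not called either and lay far from the threshold, but its interval includes the log2FC of *mbpa* (-0.53). It stood at 26.4, 14.4, 15.7 and 18.2 CPM in wild-type and at 18.9, 17.6, 19.7 and 10.03 CPM in mutant libraries. Wild-type 1 was the highest library of all and mutant 4 the lowest, and the others mixed. The log2FC was -0.15 (SE 0.23, edgeR adjusted p = 0.693) with an interval of -0.65 to 0.36, and it turned to 0.05 without wild-type 1 and 0.02 without mutant 4. The count of *mbpa* was 4.84 times that of *mbpb* in wild-type 1 and 9.4 to 10.4 times in the other wild-type libraries, against 4.98 to 7.51 times in mutants. In mammals the gene for myelin basic protein also makes Golli proteins in neurons and immune cells, and a count per gene does not separate transcripts. How reads were divided between duplicate genes was not examined.

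*plp1a* and *plp1b* are duplicates of the gene for proteolipid protein, the main membrane protein of mammalian central myelin. *plp1b* was at 36, 25.8, 32.6 and 39.9 CPM in wild-type and at 28.4, 19.7, 29.2 and 24.6 CPM in mutant libraries. Wild-type 2 fell among the mutants, and the other 3 wild-type libraries lay above every mutant. The log2FC was -0.39 (SE 0.15, edgeR adjusted p = 0.061), with an interval of -0.71 to -0.08. The difference was called without wild-type 2 (log2FC -0.51, edgeR adjusted p = 0.0143), without mutant 3 (edgeR adjusted p = 0.0468), without a filter on low counts (edgeR adjusted p = 0.0422) and with a replicate block (edgeR adjusted p = 0.0177), and in none of the other 14 alternatives. *plp1a* was far scarcer, at 4.64, 5.75, 5.49 and 3.54 CPM in wild-type and 3.91, 4.33, 2.35 and 5.62 CPM in mutant libraries. Its genotypes overlapped over most of their range (log2FC -0.28, SE 0.28, edgeR adjusted p = 0.496, interval -0.87 to 0.31), and the log2FC was -0.07 without mutant 3 and -0.47 without mutant 4. Per length, *plp1b* was 10.3 to 26.1 times as abundant as *plp1a* in wild-type and 10.1 to 28.7 times in mutant libraries.

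*mpz* encodes the adhesion molecule protein zero, which joins the outer faces of neighbouring turns of the sheath. It was at 20.6, 18.8, 11.2 and 16.3 CPM in wild-type and at 13.9, 8.76, 21.2 and 10.4 CPM in mutant libraries. Mutant 3 was the highest library of either genotype, and the other 3 mutants lay among or below the wild-type values. The coefficient of variation was 24.3% in wild-type and 40.7% in mutants, and the log2FC was -0.28 (SE 0.28, edgeR adjusted p = 0.523, interval -0.92 to 0.36). It was -0.58 (edgeR adjusted p = 0.06) without mutant 3 and -0.11 (edgeR adjusted p = 0.806) without mutant 2.

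*mag* encodes myelin-associated glycoprotein, a lectin on the innermost turn of the sheath that faces the axon. It was at 44.1, 43.9, 51.7 and 41.7 CPM in wild-type and at 36.8, 38.3, 37.4 and 41.3 CPM in mutant libraries. In CPM every mutant library lay below every wild-type library, with mutant 4 just under wild-type 4, while 13.9% of all tested genes were separated in this direction. In TPM the genotypes overlapped, with wild-type 4 at 26.5 TPM below mutant 1 at 27.6 TPM and mutant 4 at 28.1 TPM. The log2FC was -0.24 (SE 0.09, edgeR adjusted p = 0.0637, interval -0.44 to -0.04), and it was called in 1 of 18 alternatives, without wild-type 4 (-0.28, edgeR adjusted p = 0.0453). It was -0.17 (edgeR adjusted p = 0.196) without wild-type 3 and -0.14 (edgeR adjusted p = 0.322) with library totals in place of TMM. Its spread was the smallest of the 8 genes in both genotypes, with a coefficient of variation of 9.65% in wild-type and 5.23% in mutants.

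**Figure D2:**
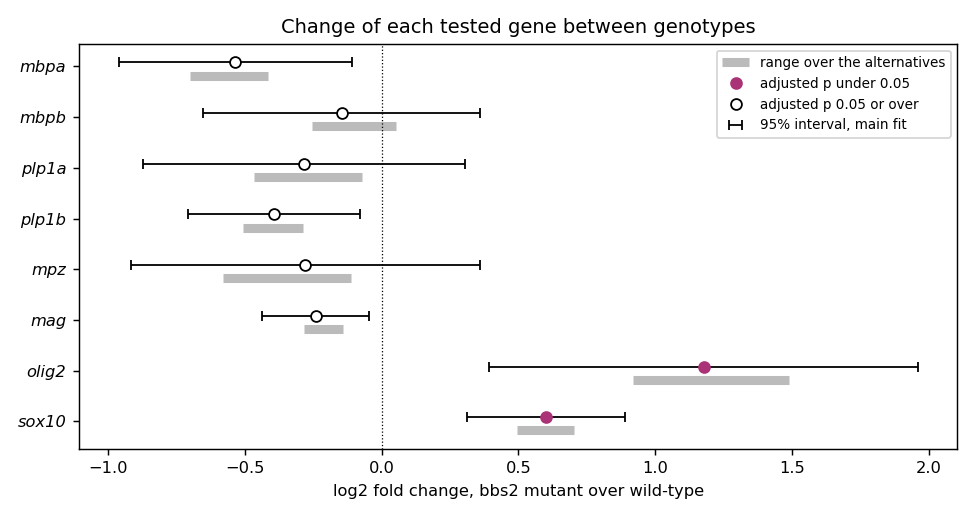
Log2 fold change of each tested gene, mutant over wild-type, with its 95% interval in the edgeR fit (black) and the range over the alternative settings (grey bars). Filled points passed the adjusted threshold; they are *olig2* at 1.18 and *sox10* at 0.60, while the 6 sheath genes lie between -0.53 and -0.15.

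Added together, the 6 sheath genes were at 249.1, 250.5, 259 and 276 counts per 1000000 of all gene counts in wild-type libraries. They were at 229, 181, 248.7 and 172 counts per 1000000 in mutant libraries, for a mean of 208 ± 37.3 (SD) against 259 ± 12.4 and a ratio of 0.803. Mutants 1 and 3 lay near the wild-type libraries, with mutant 3 just below the lowest of them, and mutants 2 and 4 lay well below. *mbpa* gave 49.2% to 58.8% of these counts in wild-type and 45% to 55.8% in mutants. Without it the ratio of means was 0.884, and the genotypes overlapped. No p is given for this sum, because its genes were chosen with results of these data known.

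*sox10* encodes a SoxE transcription factor of the neural crest, of pigment cells, of Schwann cells and of oligodendrocytes. It was at 16.6, 11.3, 13.7 and 15.9 CPM in wild-type and at 22.6, 21.1, 19.6 and 23.7 CPM in mutant libraries. The lowest mutant lay above the highest wild-type library, as for 15.4% of tested genes. The log2FC was 0.60 (SE 0.14, 95% interval 0.31 to 0.89), with an edgeR adjusted p of 0.00343. It was called in each of 18 alternative fits, with a log2FC from 0.50 to 0.70 and an adjusted p from 0.00104 to 0.0194. *sox10* was the only gene of the 9 to be called in every alternative.

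*olig2* encodes a helix-loop-helix factor that specifies oligodendrocyte precursors and motor neurons, and in mice it is also expressed in dividing retinal progenitors. It was at 3.15, 2.13, 0.854 and 1.52 CPM in wild-type and at 5.04, 3.37, 2.96 and 5.75 CPM in mutant libraries. Mutant 3 fell just below wild-type 1, and the other 3 mutants lay above every wild-type library. These values rest on few reads, 55 counts over the 4 wild-type libraries and 161 over the 4 mutant libraries. The log2FC was 1.18 (SE 0.37, interval 0.39 to 1.96, edgeR adjusted p = 0.025). The call ended without wild-type 3 (0.92, edgeR adjusted p = 0.0723), wild-type 4 (edgeR adjusted p = 0.0615), mutant 1 (edgeR adjusted p = 0.0707) or mutant 4 (edgeR adjusted p = 0.0869). *olig1*, a close relative of *olig2* that promotes maturation and repair of oligodendrocytes in mammals, had 0 counts in all 8 libraries. Taking 3 counts as the limit that a count of 0 allows, its level was under 0.261 to 0.478 CPM, depending on the library.

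Ratios within a library do not depend on how libraries are scaled. The count of *sox10* was 0.376, 0.256, 0.264 and 0.382 times that of *mag* in wild-type and 0.615, 0.55, 0.523 and 0.573 times in mutant libraries. All 4 mutants lay above all 4 wild-type libraries, with a wide gap between them. Against *mbpa* the ratio was 0.13, 0.0754, 0.0913 and 0.0931 in wild-type and 0.206, 0.24, 0.141 and 0.314 in mutant libraries, again with no overlap. The ratio of *olig2* to *sox10* ran from 0.0625 to 0.19 in wild-type and from 0.151 to 0.243 in mutants, with overlap. These pairs were picked after the values were seen and are given as a description.

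**Figure D3:**
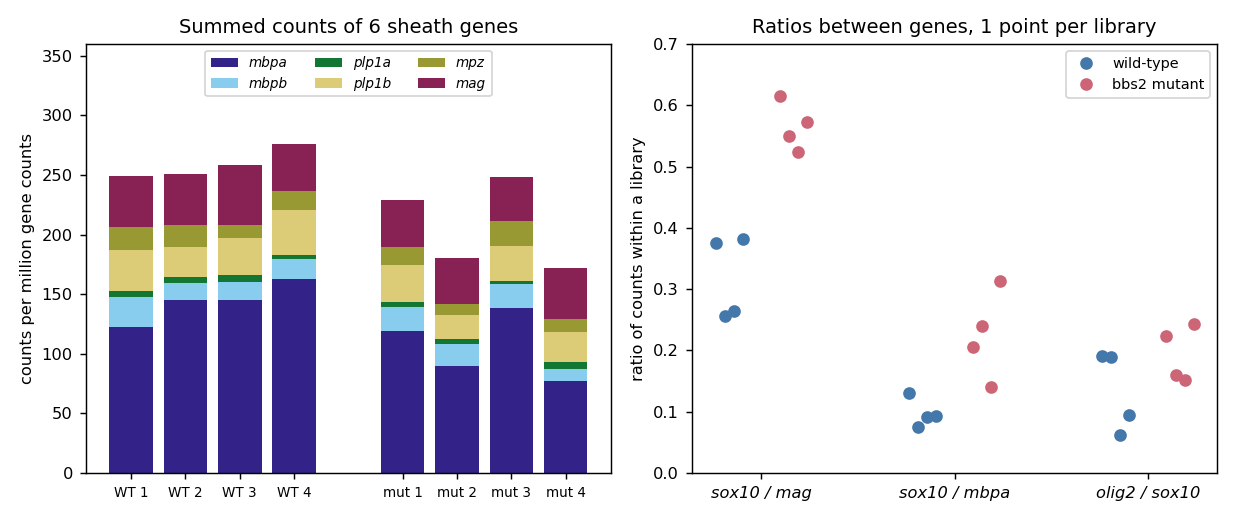
Left: 6 sheath genes as counts per 1000000 of all gene counts in each library, stacked by gene, with wild-type (WT) libraries at 249.1 to 276 and mutants (mut) at 172 to 248.7. Right: ratios of counts between pairs of genes within each library, where *sox10* over *mag* and *sox10* over *mbpa* do not overlap between genotypes and *olig2* over *sox10* does.

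Among other genes of the myelin sheath, most did not pass the test. Of 30 further symbols listed for the sheath 22 were found in the table and 14 had enough counts; 2 rose (14.3%, near the 15.2% of all tested genes), 0 fell and 12 were not called. The median log2FC was -0.20. *cnp* is related to the gene of CNPase, an enzyme of non-compact myelin in mammals. It rose from 18.9, 10.6, 16.3 and 14.3 CPM in wild-type to 28.3, 22.9, 22.1 and 26.2 CPM in mutant libraries (log2FC 0.73, SE 0.16, edgeR adjusted p = 0.00211), with no overlap. *cldn11a*, related to a tight junction protein of mammalian oligodendrocytes and Sertoli cells, rose from 0.829 to 2.65 CPM in wild-type to 6.29 to 16.2 CPM in mutants (log2FC 2.78, SE 0.34, edgeR adjusted p = 3.82e-05). At 0.829 CPM in wild-type 1, *cldn11a* would not have passed the count filter on wild-type libraries alone. The following genes were picked after their values were seen. *cldnk*, a claudin of zebrafish myelin, had a log2FC of -0.31 (edgeR adjusted p = 0.214). The tetraspanin gene *tspan2a* had a log2FC of -0.24 (edgeR adjusted p = 0.19), and *ugt8*, of galactolipid synthesis, -0.57 (edgeR adjusted p = 0.207). Other genes of the list that were not called had a positive log2FC, *fa2h* at 0.47 (edgeR adjusted p = 0.288) and *cldn11b* at 0.30 (edgeR adjusted p = 0.649). The direction of *cnp* was thus opposite to the lower means of the more abundant *mbpa*, *mag* and *plp1b*, none of which was called in the main fit.

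Of the regulators of the oligodendrocyte lineage most were not called, and those that were moved in both directions. Of 33 symbols 23 genes were tested, counting both identifiers of *ascl1b*; 6 rose (26.1%, against 15.2% of all tested genes), 3 fell (13%) and 14 were not called, at a median log2FC of 0.25. *myrf*, for a membrane-bound factor that switches on myelin genes and that is also expressed by the retinal pigment epithelium of mammals, rose from 23.04, 18.4, 18.5 and 17.7 CPM to 87.1, 47.9, 54.2 and 64.9 CPM (log2FC 1.71, SE 0.18, edgeR adjusted p = 4.14e-05). Even the lowest mutant library lay well above the highest wild-type library. The proneural gene *ascl1a*, which in zebrafish Müller glia belongs to the response to injury, rose (log2FC 3.80, SE 0.54, edgeR adjusted p = 6.91e-05) from 7 counts over the wild-type to 129 over the mutant libraries. So did 1 of the 2 identifiers of *ascl1b* (log2FC 1.27, edgeR adjusted p = 0.0465), the SoxE genes *sox9a* (0.57, edgeR adjusted p = 0.0174) and *sox9b* (0.92, edgeR adjusted p = 0.0306), and the deacetylase gene *hdac1* (0.35, edgeR adjusted p = 0.00133). *ascl1a* and the called identifier of *ascl1b* passed the count filter only through the mutant libraries, where they were high. The share of regulators that rose therefore rests in part on the filter.

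The 3 regulators that fell were *ptprz1a* (log2FC -0.36, edgeR adjusted p = 0.0103) and *ptprz1b* (-0.33, edgeR adjusted p = 0.0212), for a receptor phosphatase of precursors and other glia, and the teneurin gene *tenm4* (-0.36, edgeR adjusted p = 0.0118). *pdgfra*, the receptor that defines mammalian oligodendrocyte precursors, had a log2FC of 0.28 (SE 0.15, edgeR adjusted p = 0.168). *gpr17*, for a receptor of precursors committed to differentiate, was too low for the test, at 14 counts over the wild-type and 58 over the mutant libraries. It stood at 0.166, 0.375, 0.488 and 0.758 CPM in wild-type and 1.03, 1.44, 1.74 and 1.74 CPM in mutant libraries. Every mutant lay above every wild-type library, as for 15.4% of tested genes. A fit without a filter gave a log2FC of 1.67 (SE 0.58, edgeR adjusted p = 0.0397). For other genes of the list too low for the test, that fit gave -0.58 (*cspg4*), -0.30 (*sox8b*), -0.18 (*nkx2.2a*) and 1.13 (*nkx6.2*). Their edgeR adjusted p ran from 0.42 to 0.94. *pdgfra*, *gpr17* and these other genes were singled out after their values were seen. *olig4* and *nkx2.2b* had no count in any library.

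Among genes of axons, the partners of the sheath, some were lower in mutants. Of 20 tested identifiers for nodes of Ranvier and axon contacts, which count *ank3b* and *sptbn4b* by 2 identifiers each, 7 fell (35%, against 13% of all tested genes) and 1 rose, with a median log2FC of -0.21. The ankyrin gene *ank2b* (log2FC -0.36, edgeR adjusted p = 0.000444), both identifiers of *ank3b*, which anchors channels at nodes (-0.42 and -0.37, edgeR adjusted p = 0.000795 and 0.0175), and *cntnap2a*, of the region beside the node (-0.45, edgeR adjusted p = 0.000857), fell. The reticulon gene *rtn4b* rose (0.47, edgeR adjusted p = 0.00841). *ank2b* stood at 972 to 1313 CPM over all libraries, against 75.3 to 171 CPM for *mbpa*. Which cells hold the transcripts of this list, and whether their axons carry myelin, was not tested. Of 22 tested genes of retinal ganglion cells, whose axons form the optic nerve, 9 fell (40.9%) and 2 rose, with a median log2FC of -0.23. The neurofilament-related gene *inaa* fell from 303.4 to 394.5 CPM in wild-type to 125 to 153 CPM in mutants (log2FC -1.34, SE 0.09, edgeR adjusted p = 3.48e-08), and *sncgb* (-0.38, edgeR adjusted p = 0.000321) and *inab* (-0.39, edgeR adjusted p = 0.00147) also fell. The tubulin gene *tubb5* (0.82, edgeR adjusted p = 0.000606) and *alcamb* (0.58, edgeR adjusted p = 0.0282) rose. The summed level of the ganglion cell list was 2251 to 2361 counts per 1000000 in wild-type and 1773 to 2039 counts per 1000000 in mutants, with no overlap, and *inaa* alone made up a large part of the difference. The tested genes of ganglion cell transcription factors on this list were not called. Their log2FC was 0.13 for *pou4f1*, -0.06 for *pou4f2*, -0.16 for *pou4f3*, 0.38 for *isl2a*, -0.12 for *isl2b* and -0.88 for *eomesa* (edgeR adjusted p from 0.0995 to 0.741). The factor gene *atoh7* was too low for the test. These factors were singled out after their values were seen. Some genes of the ganglion cell list are also expressed by amacrine and horizontal cells, so the list is not specific to ganglion cells.

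Genes listed for several other cell types that express *sox10* or *myrf*, or that could accompany a dissected retina, changed in the same libraries. Of 17 tested genes of neural crest and pigment cells 12 rose (70.6%, against 15.2% of all tested genes), 1 fell and 4 were not called. Some of those that rose, such as *pnp4a* at 0.375 to 1.33 CPM in wild-type, would not have passed the count filter on wild-type libraries alone. This share therefore rests in part on the filter. The summed level of the list was 133 to 177 counts per 1000000 in wild-type and 669 to 807 in mutants. Not called were *kita* (log2FC -0.68), *xdh* (-0.59), *gch2* (0.625) and *ednrba* (0.18), at edgeR adjusted p from 0.0779 to 0.693. The melanin synthesis gene *tyrp1a* (log2FC 3.76), *pnp4a*, of iridophores (3.93), and *pmelb*, of melanosomes (3.46), rose at edgeR adjusted p from 1.48e-08 to 3.79e-07. *mitfa*, which directs melanocyte fate downstream of *sox10*, was at 0.488 to 1.25 CPM in wild-type and 2.78 to 4.55 CPM in mutants, and *ltk*, of iridophores, fell (-0.30, edgeR adjusted p = 0.0184). *mitfa* was singled out after its values were seen, as were the 4 genes that were not called. Whether the rises on this list and on that of the pigment epithelium came from separate cells was not tested. The neural crest genes *foxd3* and *crestin* had 0 and 4 counts over all 8 libraries.

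Of 11 tested genes of the retinal pigment epithelium 9 rose (81.8%, against 15.2% of all tested genes) and 0 fell. The list summed to 339 to 464 counts per 1000000 in wild-type and 1266 to 2013 in mutants, and *ttr* had no count. *rlbp1b* (log2FC 3.00), *stra6* (4.02) and *rgrb* (3.69) had the smallest p of the genes that rose, with edgeR adjusted p from 8.23e-05 to 0.000338. Mutant 3 had the lowest sum of the 4 mutants for pigment cells, for pigment epithelium and for microglia. In CPM it also had the lowest *sox10*, *olig2*, *plp1a* and *cnp* and the highest *mbpa*, *mbpb*, *mpz* and *plp1b* of the mutants. Its *mag* (37.4 CPM) lay between the lowest and the highest of the mutants. The lowest *myrf* was in mutant 2 (47.9 CPM, against 54.2 CPM in mutant 3). For *cldn11a* it was in mutant 4 (6.29 CPM, against 13.6 CPM in mutant 3). Among wild-type libraries, wild-type 4 had both the highest pigment epithelium sum (464) and the highest *mbpa* (171 CPM). Wild-type 1 had the next highest sum (431) and the lowest *mbpa* (128 CPM). These values are a description. Of 13 tested microglial genes 12 rose (92.3%, against 15.2% of all tested genes). The list summed to 333 to 378 counts per 1000000 in wild-type and 560.2 to 684 in mutants. Some microglial genes, such as *spi1b* at 0.75 to 1.26 CPM in wild-type, would not have passed the count filter on wild-type libraries alone. The part of pigment cells, pigment epithelium and microglia in the rises of *sox10*, *olig2*, *myrf*, *cnp* and *cldn11a* was not tested.

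Of the genes listed for Schwann cells, some were at few counts and others had enough counts for the test. Of 10 tested genes of the Schwann cell list 2 rose (20%) and 1 fell (10%), near the shares of all tested genes, with a median log2FC of 0.01 and a summed level of 387 to 459 counts per 1000000 in wild-type and 399 to 489.8 in mutants. The defining factor genes *egr2b* and *egr2a* had 0 and 3 counts over all libraries, and *prx*, for a protein of the peripheral sheath, had 19. The factor gene *pou3f1* of the same list had 615 counts and was not called (log2FC 0.05, edgeR adjusted p = 0.872). It was singled out after its values were seen. Of the sheath list, *pmp22a* had 12 counts and its duplicate *pmp22b* had 62, 16 of them in wild-type and 46 in mutant libraries. *adgrg6*, for a receptor needed for peripheral myelination, rose (log2FC 2.87, SE 0.56, edgeR adjusted p = 0.00619), as did the neurotrophin receptor gene *ngfrb* (0.72, edgeR adjusted p = 0.00785), and *gfra1a* fell (-0.36, edgeR adjusted p = 0.0221). Of 17 tested genes of Müller glia and of the glia of the optic nerve 6 rose (35.3%) and 1 fell (5.88%), against 15.2% and 13% of all tested genes. The list summed to 1529 to 1988 counts per 1000000 in wild-type and 1676 to 1789 in mutants, which overlapped. *fabp7a*, of radial glia (log2FC 1.08, edgeR adjusted p = 1.06e-05), and the keratin genes *krt18b* (1.40, edgeR adjusted p = 0.000318) and *krt8* (0.66, edgeR adjusted p = 0.00524) rose, and the glutamate transporter gene *slc1a2b* fell (-0.29, edgeR adjusted p = 0.0044). Of 9 tested genes of blood and vessels 1 rose (11.1%), the endothelial *pecam1* (1.19, edgeR adjusted p = 0.0049), and 1 fell (11.1%), *cahz* of red cells (-0.50, edgeR adjusted p = 0.0408).

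**Figure D4:**
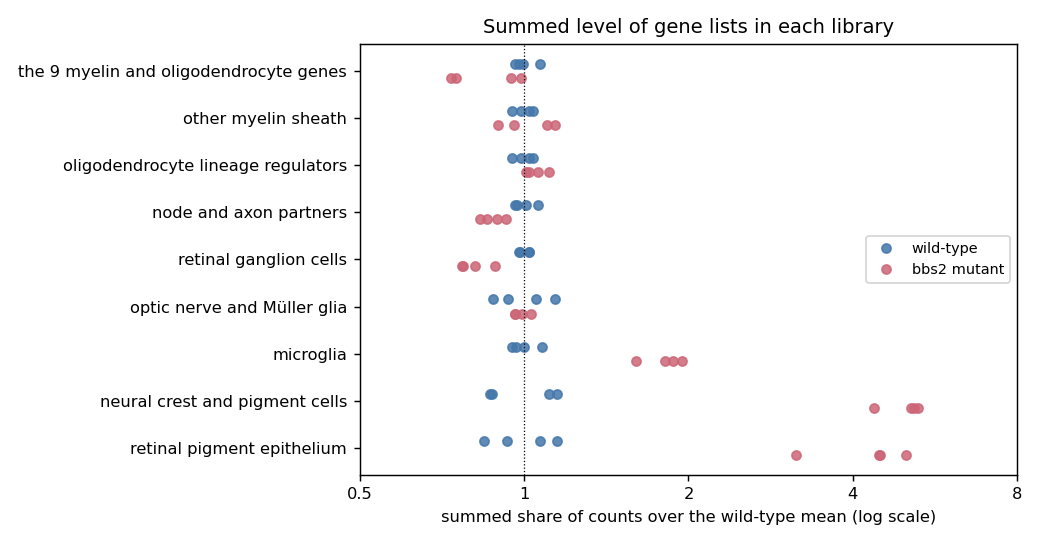
Summed share of counts of the gene lists, except those of Schwann cells and of blood and vessels, in each library. Each is divided by its mean over the 4 wild-type libraries, on a log scale, with wild-type libraries as blue and mutant libraries as red points. The 9 myelin and oligodendrocyte genes lie at 0.736 to 0.989 in mutants, ganglion cell genes at 0.769 to 0.885, and pigment cell genes at 4.37 to 5.27.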

How the data were processed

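Ribosome-depleted, stranded total RNA libraries of 8 retina samples (4 wild-type, 4 mutant) were sequenced from both ends. The authors mapped the reads to GRCz11 (Ensembl annotation) with STAR (which strand was counted is not stated) and deposited raw counts per gene, on which all tests rest. They also deposited TPM, used for levels between genes and as an alternative, made with an unstated tool. The deposited comparison table (fold changes and p-values from DESeq2 1.30.1 in R 4.0.4, per the labels) and the size-factor scaled counts were not used. No coordinates are printed, because the reference table at hand is of another assembly.

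Tests used edgeR 4.0.16 in R 4.3.3: TMM scaling, filterByExpr with 10 as its minimum count, and a robust quasi-likelihood fit on genotype alone, with p-values of 17144 genes adjusted by Benjamini-Hochberg and called at 0.05. The SE is the log2FC divided by the root of the F statistic, and 95% intervals, not adjusted for the number of genes, use the t distribution of the fit. A gene could pass the filter with enough counts in the 4 libraries of a single genotype. The shares of genes called on the lists therefore rest in part on the filter. The biological coefficient of variation was 13.6%. On data simulated for this comparison over 16822 genes, edgeR called 38.8% of genes changed by a log2FC of 0.5, 67.3% at 1, 95.9% at 2 and 98% at 3, and 10 of 16625 unchanged genes. Only 200 genes were changed in the simulation, while 4824 were called in the data. The adjusted threshold was therefore stricter in the simulation, and its shares may be too low for the data. Limits from a count of 0 cover counting error only. The labels call the samples biological replicates, and pairs of the same genotype differed beyond counting noise (chi-square per degree of freedom 5.44 to 12.6).

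The genes, the lists and the tests were chosen with earlier results of these data known, so no list was tested as a set. The lists were written from general knowledge. Named were the 9 genes, every called gene of the sheath and regulator lists, and up to 3 called genes in each direction, by smallest p, of the other lists; other names are said to be chosen later, apart from genes named because they were at or near 0. Alternatives were DESeq2 1.42.0, limma 3.58.1 (voom, and log2 TPM with pseudocounts of 0.1 and 1), other scalings and filters, thinned libraries, a replicate block, and leaving out each library.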

Additional observations from a re-analysis of the deposited data

How the results depend on the processing

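In each of the 18 alternatives 3664 to 4990 genes were called (3939 to 4712 without single replicates), against 4824. The number of the 9 genes called higher was 2 in the main fit, 1 with at least 10 counts in every library, where *olig2* drops out of the test, and 1 to 2 without single replicates. The number called lower was 0 in the main fit, 1 without a filter (*plp1b*), 1 with DESeq2, limma-voom or limma on log2 TPM at either pseudocount (*mbpa*), and 0 to 2 without single replicates. *mbpb* alone changed sign, running from -0.256 to 0.0519 without single replicates, with 0.0519 without wild-type 1 and 0.0201 without mutant 4 (edgeR adjusted p = 0.888 and 0.958). The cause of these differences between settings was not tested. *mpz* and *plp1a* were called in no alternative, with adjusted p from 0.06 to 0.806 and from 0.284 to 0.878. With library totals in place of TMM the median log2FC of all tested genes moved from -0.01 to 0.09, 71.3% of called genes were higher in place of 54%, and *mbpa* had a log2FC of -0.43 and *mag* of -0.14. With log2(TPM + 0.1) 61.1% of called genes were higher.

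Replicate numbers 1 to 4 occur in both genotypes, but deviations of libraries of equal number correlated at only -0.07 to 0.06, so the numbers were not taken to pair samples. Among the 4 libraries of the other genotype, 4 of 8 libraries correlated best with their own number, which is too few libraries to decide on pairing. With a replicate block 4759 genes were called, 2 of the 9 genes higher and 1 lower (*plp1b*, log2FC -0.39, edgeR adjusted p = 0.0177). The summed share of the 6 sheath genes, mutant over wild-type, was 0.794 by pairs of equal number. It was 0.757 in TPM, 0.749 in TMM-scaled CPM and 0.75 to 0.849 without single replicates, against 0.803. Depth limits *olig1*, which had no count and could not be tested, and *olig2*, at 7 to 49 counts per library.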

Other observations

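Sheath genes were also compared in how they varied between libraries of the same genotype. After the mean of each genotype was subtracted from log2 CPM, *mbpa*, *mbpb*, *mpz* and *plp1b* had positive Pearson's r over the 8 libraries. It ran from 0.40 (*mbpa* with *mbpb*) to 0.59 (*mbpa* with *mpz*) for the 6 pairs. Values of this size are imprecise over 8 libraries, and whether they differ from 0 was not tested. *plp1a* ran the other way, at -0.85 with *mbpa*, -0.65 with *mbpb*, -0.67 with *mpz* and -0.65 with *plp1b*. *mag* was at -0.43 with *mbpa*, -0.52 with *mbpb*, -0.61 with *mpz* and -0.27 with *plp1b*. The points of each pair share library, depth and scaling, and these values are a description.

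Against the mean of the 6 sheath genes within genotypes, the highest r on the sheath list belonged to genes that were not called between genotypes. These were *tspan2a* (r = 0.82), *cldnk* (0.75), *ugt8* (0.73) and *cldn11b* (0.69), and the other 10 tested genes of that list, called or not, ran from -0.47 (*mpzl2b*) to 0.59 (*cd59*), with *cnp* at 0.25 and *cldn11a* at 0.17. The 10 tested genes most like that mean were *ttyh1*, *dpy19l3*, *MAN1C1*, *si:ch211-169p10.1*, *col24a1*, *rbm33a*, *cnih3*, *adar*, *ndufa4l2b* and *dlg1*, with r from 0.956 to 0.972 over the 8 libraries. Without subtraction of the genotype means the 10 were *ndufa4l2b*, *dlg1*, *emb*, *gpr85*, *srsf7b*, *gpr153*, *nrxn3b*, *camk2d2*, *robo2* and *atp1b3a*, with r from 0.976 to 0.986, and *ndufa4l2b* and *dlg1* stand in both lists. Each list holds the highest r of all tested genes over only 8 libraries, so high values are partly a product of the ranking. The mean also includes *plp1a* and *mag*, which had negative r with *mbpa*, *mbpb*, *mpz* and *plp1b*.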
